A study of Homo sapiens with 8 samples.

Results

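Lapatinib against DMSO moved 177 genes in opposite directions in SKBR-3 and BT474m1, human HER2+ breast cancer lines. The genes were chosen on that contrast. The difference of log2(value + 1) between the lapatinib and the DMSO library had to be 0.5 or more in one line and -0.5 or less in the other. A value of 100 or more was also required in the DMSO or the lapatinib library of each line. Of the 20531 genes listed, 9681 had that level. Among them, 89 were higher with lapatinib in SKBR-3 and lower in BT474m1, which is 0.919% of the genes at the level. The remaining 88, or 0.909%, were lower in SKBR-3 and higher in BT474m1, so that both directions together made up 1.83%. These shares follow from the rule and are a description. Over the same genes 1974 moved by 0.5 or more in the same direction in both lines, 993 of them upward (10.3%) and 981 downward (10.1%). Only 15 genes were opposite by 1 or more in each line.

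Poly(A) RNA was sequenced from 8 cultures, each line receiving DMSO as the vehicle, 300 nM lapatinib, 300 nM JQ1, or lapatinib and JQ1 together at 300 nM each, for 48 h per the labels. Each of the 8 groups held 1 library, so that no difference could be set against a spread between cultures and no p-value is given. In RNA of whole cultures, fewer cells of a kind and less RNA per cell cannot be told apart. Both lines are established lines grown in RPMI with 10% serum, and each stands for 1 tumour. The measurement is a normalised read count per gene, called the value here, which the authors scaled to a common upper quartile in each library. Intervals printed after a log2 change are 95% intervals for the counting error of the reads and take no account of differences between cultures.

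Lapatinib inhibits the kinases of EGFR and of HER2, the receptor that both lines carry at high copy number. Signals from HER2 run through the RAS-MAPK and PI3K-AKT pathways to transcription factors such as EGR1, JUN and MYC, and blocking them changes growth, metabolism and differentiation genes. JQ1 displaces BET proteins from acetylated chromatin and lowers transcription from many enhancers. SKBR-3 lacks estrogen and progesterone receptors, which BT474m1 expresses.

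The libraries held between 21420113 and 34112380 reads on genes. The values of the 6 epithelial and HER2 amplicon markers ERBB2, GRB7, EPCAM, KRT8, KRT18 and KRT19 were 3300 or more in every library of both lines. ESR1 and PGR lay between 190 and 12466 in BT474m1 and reached at most 16.8 in SKBR-3. PTPRC, PECAM1 and COL3A1, markers of leukocytes, endothelium and fibroblasts, were at 8.02 or less in all 8 libraries. VIM ranged from 204 to 657 and COL1A1 from 337 to 1253 in BT474m1, against at most 2.06 and 124 in SKBR-3.

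**Figure D1:**
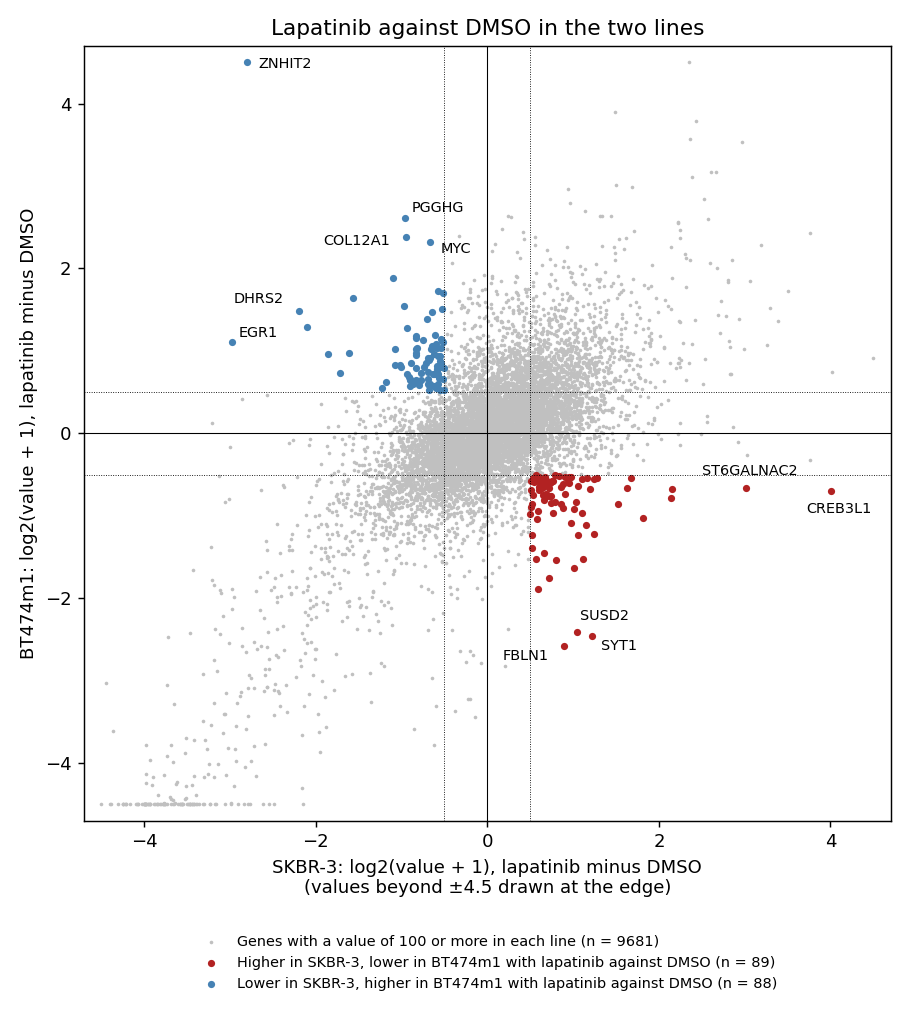
Change with lapatinib in SKBR-3 (x axis) against BT474m1 (y axis), as the difference of log2(value + 1) between the lapatinib and the DMSO library, for the 9681 genes at the level (grey), the 89 genes higher in SKBR-3 and lower in BT474m1 (red) and the 88 with the reverse (blue). Dotted lines mark 0.5 and -0.5, and the coloured points fill the outer corners of the upper left and lower right quadrants because the rule placed them there.

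The libraries treated with JQ1 and with both drugs took no part in choosing the genes. They therefore give a second look at the same question, namely what lapatinib does in each line, here on top of JQ1. Of the 89 genes higher in SKBR-3 and lower in BT474m1, 71 (79.8%, exact binomial interval 69.9% to 87.6%) kept both directions when the library with both drugs was compared with JQ1 alone. Of the 88 with the reverse pattern, 66 (75%, 64.6% to 83.6%) did so. The intervals treat genes as independent, which they are not. In 1 gene, CRABP2, both directions turned.

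Read against all genes, these shares were high. At a value of 100 or more in the JQ1 or the combination library of each line, 79 of the 89 genes and 70 of the 88 remained. Both directions were kept by 66 of the 79 (83.5%), where 14.4% of the 9313 genes at that level went up in SKBR-3 and down in BT474m1 by any amount. For the reverse pattern the count was 53 of 70 (75.7%) beside 15.5% of all genes. At 0.5 or more in each line the counts were 18 of 79 (22.8%) beside 0.591%, and 32 of 70 (45.7%) beside 1.08%. The gap from all genes was thus present at either size, and with 1 library per group it was described and not tested.

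The median changes when lapatinib was added to JQ1 were 0.48 in SKBR-3 and -0.58 in BT474m1 for the 89 genes. They were -0.78 and 0.64 for the 88. Over the 9681 genes at the level of the rule the corresponding medians were -0.01 and 0.01. Taken line by line, 77 of the 89 genes kept their direction in SKBR-3 and 82 in BT474m1, and 79 and 75 of the 88 did. The 40 genes that lost a direction included several with large changes against DMSO alone, among them DEGS1, SEMA4A, KCNK5, DHRS2 and REEP1.

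**Figure D2:**
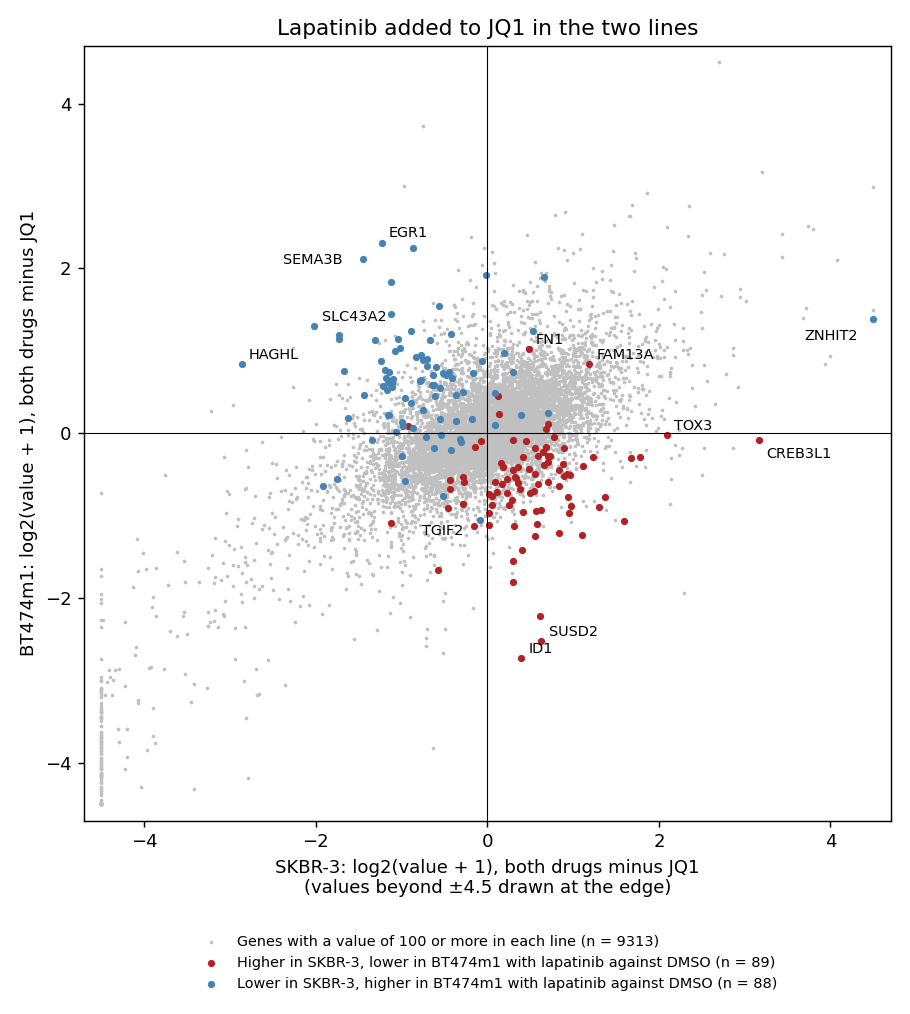
Change on adding lapatinib to JQ1 in SKBR-3 (x axis) against BT474m1 (y axis), as log2(value + 1) with both drugs minus JQ1, for 9313 genes at the level in these libraries (grey) and for all 89 (red) and 88 (blue) genes chosen on lapatinib against DMSO. None of these libraries entered the choice, and 71 red points lie in the lower right and 66 blue points in the upper left quadrant.

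To order the genes by function, 66 of the 177 were placed in 6 groups by hand after their values had been seen. The groups serve only to order the text, and genes of like function may stand outside them. In what follows values are listed in the order DMSO, lapatinib, JQ1 and both drugs. Log2 changes are lapatinib minus DMSO unless stated otherwise. Genes outside the 12 leading genes of each direction and the 18 prepared lists were chosen after their values were seen.

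The group of transcription factors held 15 of the genes, 7 higher in SKBR-3 and 8 higher in BT474m1. FOXA1, a pioneer factor that opens chromatin in luminal cells, had values of 5198, 7884, 6197 and 9779.5 in SKBR-3 and 12907, 8957, 13200.0 and 10157 in BT474m1. Its log2 changes with lapatinib were 0.60 (0.56 to 0.64) in SKBR-3 and -0.53 (-0.56 to -0.50) in BT474m1. The lines thus came closer together in the libraries with lapatinib. As scaled by the authors they differed least in the combination libraries, but that ranking depends on the scaling. TOX3, a chromatin protein of luminal cells, read 70.9, 318, 46.4 and 202 in SKBR-3 and 2043, 1279, 1589 and 1567 in BT474m1. CREB3L1, a membrane-bound factor released by proteolysis and tied to secretion, read 37.9, 626, 15.5 and 147 in SKBR-3 and 2358, 1446, 1292 and 1222 in BT474m1. Both were low in SKBR-3 with DMSO and JQ1 and high in its libraries with lapatinib, with log2 changes of 2.15 (1.85 to 2.50) for TOX3 and 4.01 (3.64 to 4.47) for CREB3L1. BT474m1 held more of both in all 4 treatments. On top of JQ1 their changes in BT474m1 were -0.02 (-0.09 to 0.05) and -0.08 (-0.16 to 0.00), so that the lower values in BT474m1 were seen against DMSO and not clearly on top of JQ1.

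ID1, an inhibitor of basic helix-loop-helix factors and a target of BMP signals, had values of 2144, 3535, 4683 and 6143 in SKBR-3 and 1155, 340.4, 2025 and 306 in BT474m1. Its changes were 0.72 (0.65 to 0.79) in SKBR-3 and -1.76 (-1.90 to -1.63) in BT474m1, and on top of JQ1 0.39 (0.35 to 0.44) in SKBR-3 and -2.72 (-2.86 to -2.60) in BT474m1. SKBR-3 thus held its highest ID1 with both drugs, and BT474m1 its lowest. TFAP2A, an AP-2 factor of luminal epithelium, read 2109, 3426, 3550.4 and 3209.7 in SKBR-3 and 2778, 1661, 2931 and 2610.4 in BT474m1, and its changes were 0.70 (0.63 to 0.77) in SKBR-3 and -0.74 (-0.81 to -0.68) in BT474m1. On top of JQ1 it changed by -0.15 (-0.20 to -0.09) in SKBR-3 and -0.17 (-0.22 to -0.11) in BT474m1, in the same direction in both lines. AHR, the ligand-activated aryl hydrocarbon receptor, read 1647, 2409.6, 3345 and 4303 in SKBR-3 and 2314, 1534, 4466 and 2948 in BT474m1. JQ1 libraries held more AHR than DMSO libraries in both lines, and lapatinib shifted it in opposite directions with and without JQ1.

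EGR1, JUN and MYC, factors downstream of growth signals, were lower with lapatinib in SKBR-3 and higher in BT474m1. EGR1 had values of 225, 27.6, 657 and 279 in SKBR-3 and 59.9, 130.1, 52.2 and 263 in BT474m1. Its log2 changes were -2.98 (-3.57 to -2.53) in SKBR-3 and 1.11 (0.80 to 1.45) in BT474m1, and on top of JQ1 they were -1.23 (-1.41 to -1.07) in SKBR-3 and 2.31 (2.03 to 2.65) in BT474m1. JUN read 396, 263, 1543 and 1482 in SKBR-3 and 844, 1487, 2220.3 and 4079 in BT474m1, with changes of -0.59 (-0.79 to -0.39) in SKBR-3 and 0.82 (0.73 to 0.91) in BT474m1. On top of JQ1 its change in BT474m1 was 0.88 (0.82 to 0.93) while that in SKBR-3, -0.06 (-0.14 to 0.03), included 0. MYC, the growth factor response gene that drives ribosome production, read 2143, 1349.9, 1879 and 1416 in SKBR-3 and 463, 2312, 37.2 and 60.1 in BT474m1. As scaled by the authors, BT474m1 with lapatinib alone held more MYC than any SKBR-3 library. SKBR-3 with DMSO was close, at 2143, and their order depends on the scaling. Both BT474m1 libraries with JQ1 were at 60.1 or below. The MYC changes were -0.67 (-0.75 to -0.58) in SKBR-3 and 2.32 (2.22 to 2.42) in BT474m1.

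Further factors in this direction were RFX5 and RFXAP, subunits of the complex that activates MHC class II genes. RFX5 had values of 1422, 777, 773 and 359 in SKBR-3 and 579, 881, 323 and 509.6 in BT474m1, and RFXAP of 129.6, 90.4, 101 and 90.1 in SKBR-3 and 46.2, 101, 48.8 and 81.6 in BT474m1. Their changes in BT474m1 were 0.60 (0.49 to 0.72) and 1.11 (0.75 to 1.50). NFE2L3, a CNC family leucine zipper factor, read 572, 384, 136 and 134 in SKBR-3 and 193, 639.8, 205 and 778 in BT474m1. TGIF2, a repressor of TGF-beta signals, read 431, 262, 130.2 and 122 in SKBR-3 and 451, 814, 202 and 96.6 in BT474m1, and both lines held the least of it in the libraries with JQ1. Of 283 ZNF zinc finger genes at the level 2 were chosen (0.707%, beside 1.83% of all genes), ZNF253 higher in SKBR-3 and ZNF680 higher in BT474m1.

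**Figure D3:**
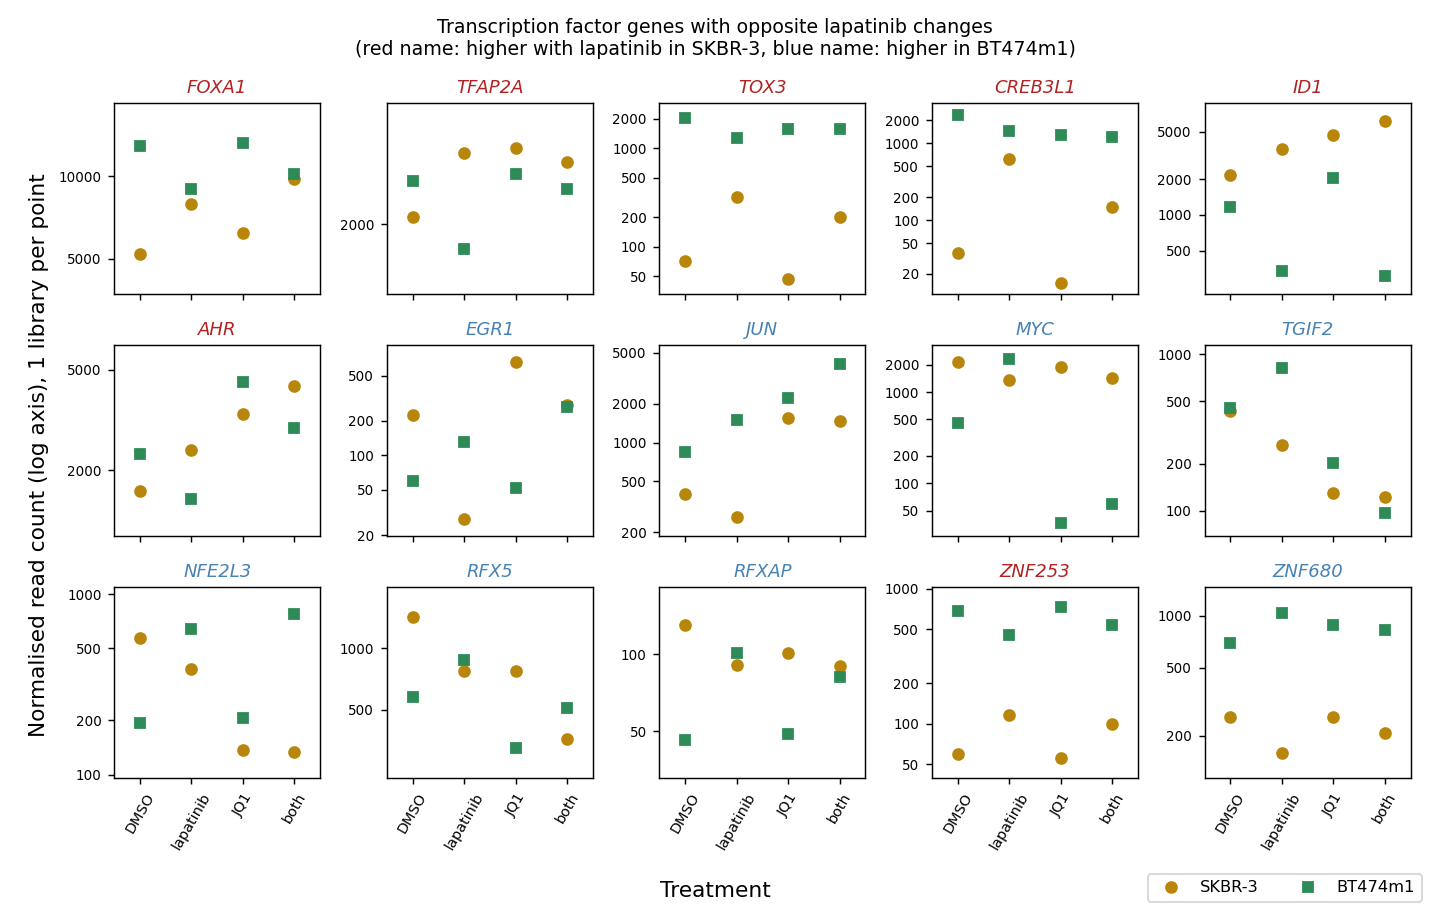
Normalised read counts (log axis) of the 15 transcription factor genes in the 8 libraries, with circles for SKBR-3 and squares for BT474m1 and 1 library per point. Names in red are higher with lapatinib in SKBR-3 and names in blue higher in BT474m1, and MYC in BT474m1 stands at 463 with DMSO, 2312 with lapatinib and at most 60.1 with JQ1.

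Promoter windows of 4 factor or growth control genes are shown for the letters they share with the binding motifs searched. A RefSeq promoter of GRCh38.p14, running from 250 bases before to 50 bases after the first listed start, was found for 134 of the 177 genes. Capitals mark matches on either strand to the forkhead motifs GTAAACA and GTCAACA, the MYC motif CACGTG, the AP-1 motif TGACTCA, the estrogen receptor motif GGTCANNNTGACC and the NF-Y motif CCAAT. BTG1, an antiproliferative gene chosen here for its forkhead match after the values were seen, belongs with ID1 to the genes higher in SKBR-3. JUN and RFX5 belong to those higher in BT474m1.
ID1, chr20:31605039-31605338, plus strand: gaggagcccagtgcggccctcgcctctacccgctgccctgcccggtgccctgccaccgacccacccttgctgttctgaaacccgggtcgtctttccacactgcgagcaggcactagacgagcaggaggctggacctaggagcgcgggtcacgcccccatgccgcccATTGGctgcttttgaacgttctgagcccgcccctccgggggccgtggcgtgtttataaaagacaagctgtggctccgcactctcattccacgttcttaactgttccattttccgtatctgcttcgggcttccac
BTG1, chr12:92145797-92146096, minus strand: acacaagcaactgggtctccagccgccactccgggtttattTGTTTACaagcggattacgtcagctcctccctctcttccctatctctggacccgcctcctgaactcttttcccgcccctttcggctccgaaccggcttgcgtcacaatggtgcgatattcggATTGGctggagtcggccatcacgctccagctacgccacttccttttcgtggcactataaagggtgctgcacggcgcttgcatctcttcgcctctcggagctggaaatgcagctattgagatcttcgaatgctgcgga
JUN, chr1:58783998-58784297, minus strand: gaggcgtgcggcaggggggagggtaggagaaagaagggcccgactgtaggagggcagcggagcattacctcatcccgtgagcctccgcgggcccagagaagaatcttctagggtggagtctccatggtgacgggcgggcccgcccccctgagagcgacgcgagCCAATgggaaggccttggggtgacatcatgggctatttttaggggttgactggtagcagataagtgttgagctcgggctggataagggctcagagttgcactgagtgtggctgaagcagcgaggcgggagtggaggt
RFX5, chr1:151347203-151347502, minus strand: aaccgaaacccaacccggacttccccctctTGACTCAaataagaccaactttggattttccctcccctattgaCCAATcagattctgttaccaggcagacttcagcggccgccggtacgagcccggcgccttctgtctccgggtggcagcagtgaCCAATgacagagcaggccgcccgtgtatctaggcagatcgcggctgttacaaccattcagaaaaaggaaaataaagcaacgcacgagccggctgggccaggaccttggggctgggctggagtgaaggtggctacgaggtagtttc

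ID1, BTG1 and JUN each held 1 CCAAT and RFX5 held 2, and RFX5 also held the AP-1 letters. GTAAACA was found in BTG1 alone of the 134 promoters (0.746%), beside 2.18% of 7953 promoters of genes at the level and 3.41% of all 27305 promoters. GTCAACA was found in CPE alone, beside 1.26% and 2.39%. CACGTG stood in 14 of 134 (10.4%), beside 10.9% and 7.43%. TGACTCA stood in CAPNS1, SLC43A2, RFX5 and UNKL, or 2.99%, beside 2.62% and 4.92%. CCAAT stood in 47 (35.1%), beside 37.8% and 35.7%, with 27 in the 70 promoters of genes higher in SKBR-3 and 20 in the 64 of the others. The estrogen receptor palindrome was in none of the 134 and in none of the genes at the level, beside 0.0659% of all promoters. The exact binomial interval of each share over the 134 included the share of genes at the level.

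Of the 12 genes placed under glycosylation and the secretory pathway, 10 were higher in SKBR-3 and 2 higher in BT474m1. MAN1C1, a Golgi mannosidase that trims N-glycans, had the largest smaller change of its direction, with values of 117, 279, 173 and 332 in SKBR-3 and 104, 44.0, 147 and 85.7 in BT474m1. Its changes were 1.24 (0.98 to 1.52) in SKBR-3 and -1.22 (-1.64 to -0.85) in BT474m1, and 0.94 (0.73 to 1.16) in SKBR-3 and -0.77 (-1.07 to -0.49) in BT474m1 on top of JQ1. The direction in either line was the same with and without JQ1. Scaled by the median of ratios, MAN1C1 kept its changes but fell short of the level of the rule. GALNT12, which starts mucin-type O-glycans, read 294, 1038, 197 and 463 in SKBR-3 and 658, 323, 484 and 395 in BT474m1. ST6GALNAC2 and ST3GAL1, sialyltransferases that cap such chains, read 27.2, 227, 18.0 and 56.4 in SKBR-3 and 1671, 1059, 2490.3 and 1189 in BT474m1, and 1802, 2847, 2419 and 3746 in SKBR-3 and 3866, 1409.6, 5031 and 2629.7 in BT474m1, respectively. ST6GALNAC2 was thus near the bottom of the range in SKBR-3 with DMSO and above 1000 in all libraries of BT474m1. Also higher in SKBR-3 with lapatinib were MGAT4A, GFPT1, MIA3, COPG1 and RABEP2, whose work runs from N-glycan branching and hexosamine supply to vesicle traffic. AMDHD2, which takes part in the breakdown of N-acetylglucosamine, and AP1S2, a clathrin adaptor subunit, went the other way. LFNG, the Golgi enzyme that modifies Notch with sugars, had values of 88.0, 126, 109.5 and 113 in SKBR-3 and 3979, 2470.5, 5412 and 2957 in BT474m1, and its SKBR-3 change was 0.51 (0.17 to 0.86). That change lay at the threshold and was 0.45 to 0.49 under a pseudocount of 10 and both other scalings, so that LFNG was chosen by none of them. JAG2, a Notch ligand, went the other way, with 189.7, 126, 206 and 94.2 in SKBR-3 and 273, 469.9, 285 and 420.4 in BT474m1.

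Of the 12 genes placed under secreted and matrix proteins, 7 were higher in SKBR-3 and 5 higher in BT474m1. FBLN1, a matrix glycoprotein, had values of 812, 1516, 546 and 672 in SKBR-3 and 659, 109.6, 336 and 114 in BT474m1 and changes of 0.90 (0.79 to 1.01) in SKBR-3 and -2.58 (-2.82 to -2.36) in BT474m1. FN1, the matrix protein fibronectin, read 1179.7, 1976, 578 and 808 in SKBR-3 and 146, 96.4, 43.5 and 89.2 in BT474m1, and on top of JQ1 it was higher in both lines, by 0.48 (0.36 to 0.61) in SKBR-3 and 1.02 (0.65 to 1.43) in BT474m1. CCN1, a matricellular protein, read 905, 1371, 962 and 1023 in SKBR-3 and 506, 322, 420.3 and 279 in BT474m1. SKBR-3 thus held its most CCN1 with lapatinib alone. AZGP1, a secreted product of apocrine epithelium, read 115, 508, 92.1 and 181 in SKBR-3 and 572, 331, 355 and 249.6 in BT474m1, and its opposite changes were present on top of JQ1 too, at 0.97 (0.67 to 1.28) in SKBR-3 and -0.51 (-0.68 to -0.33) in BT474m1. BMP7 and LTBP1, a ligand of the TGF-beta family and a protein that stores latent TGF-beta, changed by 0.59 (0.55 to 0.63) in SKBR-3 and -0.94 (-0.98 to -0.90) in BT474m1, and by 0.64 (0.60 to 0.69) in SKBR-3 and -0.75 (-0.88 to -0.63) in BT474m1. In the other direction COL12A1, a fibril-associated collagen, had values of 1482, 769, 1682 and 761 in SKBR-3 and 1589.8, 8262, 292 and 489 in BT474m1. Its BT474m1 value with lapatinib alone was the highest of the 8, and the JQ1 libraries of that line held the least. SEMA3B, a secreted semaphorin, read 592, 300.2, 97.9 and 35.1 in SKBR-3 and 137, 402, 55.1 and 242 in BT474m1, with changes of -1.46 (-1.97 to -1.01) in SKBR-3 and 2.12 (1.83 to 2.45) in BT474m1 on top of JQ1. A transmembrane semaphorin, SEMA4A, was of the opposite pattern, with 249.8, 504, 52.2 and 57.1 in SKBR-3 and 446, 235, 126 and 173 in BT474m1. On top of JQ1, however, SEMA4A was not lower in BT474m1. HSPG2 and IGFBP2, the proteoglycan perlecan and a carrier of insulin-like growth factors, had changes of -1.23 (-1.33 to -1.14) and -0.54 (-0.72 to -0.36) in SKBR-3 and, in BT474m1, of 0.55 (0.41 to 0.69) and 1.03 (0.96 to 1.11).

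Transporters and channels held 13 of the genes, 4 higher in SKBR-3 and 9 higher in BT474m1. SLC1A5, the ASCT2 glutamine carrier, had values of 5656, 9446, 8795 and 18897 in SKBR-3 and 5702, 3363, 5651 and 2412 in BT474m1. The spread between the lines was widest with both drugs, and the changes on top of JQ1 were 1.10 (1.07 to 1.13) in SKBR-3 and -1.23 (-1.28 to -1.18) in BT474m1. SLC12A2, a sodium, potassium and chloride cotransporter, moved in the same directions, with 1229.8, 2092, 2561 and 3850.0 in SKBR-3 and 14302, 7348, 17571 and 11479.9 in BT474m1. Of 172 solute carrier genes at the level, 5 (2.91%) were among the 177, beside 1.83% of all genes. SLC43A2, a carrier of large neutral amino acids, went the other way, with 651, 381, 1514 and 374 in SKBR-3 and 358, 560.2, 307 and 757 in BT474m1. KCNK5, a background potassium channel, had values of 234, 78.1, 179 and 46.8 in SKBR-3 and 40.5, 129, 39.6 and 25.1 in BT474m1. Its changes were -1.57 (-1.92 to -1.26) in SKBR-3 and 1.64 (1.30 to 2.05) in BT474m1, but on top of JQ1 it was lower in both lines, with -1.91 (-2.34 to -1.55) in SKBR-3 and -0.64 (-1.23 to -0.11) in BT474m1. SCARB1, the receptor for high-density lipoprotein, and ABCA7, a lipid transporter, changed in SKBR-3 by -0.58 (-0.65 to -0.51) and -0.65 (-0.96 to -0.34), and in BT474m1 by 0.93 (0.85 to 1.02) and 1.04 (0.90 to 1.19).

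Amino acid and mitochondrial metabolism held 7 genes higher in SKBR-3 and 1 higher in BT474m1, and lipid metabolism 3 in either direction. IDH1, the cytosolic isocitrate dehydrogenase, read 1597, 3669, 2340.2 and 4174 in SKBR-3 and 6818, 4269, 9997 and 6408 in BT474m1, and ALDH6A1, an enzyme of valine breakdown, read 471, 1509, 508 and 1742 in SKBR-3 and 597, 409.8, 534 and 438 in BT474m1. Both kept their directions on top of JQ1, IDH1 by 0.83 (0.78 to 0.89) in SKBR-3 and -0.64 (-0.68 to -0.61) in BT474m1. DEGS1, the desaturase that completes ceramide synthesis, had values of 9119, 19696, 9934 and 8142 in SKBR-3 and 3314, 1152, 1935 and 1335 in BT474m1. Its SKBR-3 value with lapatinib stood above all other libraries, and with JQ1 present lapatinib was followed by lower values in both lines, -0.29 (-0.32 to -0.25) in SKBR-3 and -0.54 (-0.61 to -0.46) in BT474m1. DEGS1 lies on chromosome 1 between FBXO28 and NVL, both of which were also higher in SKBR-3 and lower in BT474m1. One other pair of neighbours, KLHL17 and PLEKHN1, shared a direction, here higher in BT474m1. RDH10, which oxidises retinol towards retinoic acid, read 1526, 3375, 1005 and 1971 in SKBR-3 and 1319.7, 612, 868 and 472 in BT474m1. CRABP2, a retinoic acid carrier protein, changed by 0.91 (0.72 to 1.10) in SKBR-3 and -0.73 (-0.84 to -0.63) in BT474m1, and by -0.93 (-1.44 to -0.47) in SKBR-3 and 0.09 (-0.13 to 0.32) in BT474m1 on top of JQ1. ACACB, the mitochondrial acetyl-CoA carboxylase, was of the reverse pattern, with 206, 116, 176 and 136 in SKBR-3 and 308, 532, 237 and 328 in BT474m1. DHRS2, a short-chain dehydrogenase, held the highest single value of the 177 genes, with 56702, 12379.8, 255026 and 131021 in SKBR-3 and 1266, 3557, 1343 and 901 in BT474m1. Its SKBR-3 value with JQ1 was above that with DMSO, and on top of JQ1 lapatinib was followed by lower values in both lines, -0.96 (-0.97 to -0.95) in SKBR-3 and -0.57 (-0.67 to -0.48) in BT474m1.

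Over all genes higher in BT474m1, 8 of 88 (9.09%) had no protein-coding annotation, against 0 of 89 in the other direction and 2.42% of the genes at the level. SNHG3, a host gene of small nucleolar RNAs, had values of 152, 34.5, 117 and 34.4 in SKBR-3 and 46.7, 116, 37.2 and 86.3 in BT474m1. Its changes were -2.11 (-2.64 to -1.67) in SKBR-3 and 1.29 (0.95 to 1.67) in BT474m1, and on top of JQ1 -1.73 (-2.24 to -1.30) in SKBR-3 and 1.19 (0.81 to 1.63) in BT474m1. A second listed entry of that locus, SNHG3-RCC1, was also among the 88 and is not an independent gene. SNRNP70, a protein of the U1 snRNP of the spliceosome, read 2374, 1265, 2457 and 1112 in SKBR-3 and 3291, 5211, 3678 and 5638 in BT474m1, and METTL3, which methylates adenosine in mRNA, read 653, 459.7, 468 and 348 in SKBR-3 and 558, 967, 399 and 920.0 in BT474m1. Both were lower with lapatinib in SKBR-3 and higher in BT474m1 at either JQ1 state. The pseudogenes NSUN5P1 and NSUN5P2 changed in BT474m1 by 1.19 (0.97 to 1.42) and 1.71 (1.58 to 1.85). Other genes that act on RNA went the opposite way, among them NVL, which takes part in ribosome assembly, TENT5A, a poly(A) polymerase, and NANOS1, a regulator of mRNA.

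Genes with fractional reads were also more frequent in that direction. Values were not whole reads in at least 1 of the 4 libraries of the rule for 27 of the 88 genes (30.7%), for 16 of the 89 (18.0%) and for 18.2% of the genes at the level. Such values arise where the counting divides reads between similar or overlapping genes, and these genes are uncertain. ANKRD36, SNORA8, NPIPB3, ZNG1C, HSPA1A and the NSUN5 pseudogenes have near copies or lie within other genes, as do CKMT1B, GPR89B and RGPD6 among the 89. The values of TFAP2A, ALDH6A1, RABEP2, ZNF253, TGIF2, AMDHD2, HSPG2, UNKL, KRT15, METTL3, SNHG3-RCC1 and ZNHIT2, named elsewhere in the text, were not all whole reads either, and their counting intervals take no account of that. ANKRD36 had values of 118, 54.7, 107 and 56.9 in SKBR-3 and 121, 452, 168 and 398 in BT474m1. With only genes of whole reads in the 4 libraries, an alternative chosen after seeing the data, 73 and 61 genes remained. The level differed too. The median of the highest value over the 4 libraries of the rule was 2331 for the 89 genes, 604 for the 88 and 1156 for all genes at the level.

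The other leading genes higher in SKBR-3 and lower in BT474m1 had varied functions. SUSD2, a sushi domain membrane protein, read 26956, 55426, 45272 and 70105 in SKBR-3 and 637, 119, 599.5 and 104 in BT474m1, and its changes on top of JQ1 were 0.63 (0.62 to 0.64) in SKBR-3 and -2.52 (-2.76 to -2.30) in BT474m1. SYT1, the calcium sensor of vesicle release, read 204, 475, 72.2 and 111 in SKBR-3 and 365, 65.7, 28.0 and 5.25 in BT474m1. In both lines JQ1 libraries held less SYT1 than DMSO libraries, and its changes with lapatinib were opposite in the lines with and without JQ1. DDB2, a sensor of DNA damage by ultraviolet light, read 176, 368, 182 and 226 in SKBR-3 and 307, 130.1, 218 and 99.1 in BT474m1. TP53INP2, an autophagy and nuclear receptor cofactor, read 7457, 15056, 11108 and 16468 in SKBR-3 and 4073, 1317, 7878 and 4092 in BT474m1. EXPH5, an effector of RAB27 vesicle transport, read 1183, 2331, 773 and 2466 in SKBR-3 and 249, 117, 158 and 128 in BT474m1, and CAPS, a calcium-binding protein, read 1319, 2845, 318 and 423 in SKBR-3 and 499, 255, 267 and 219 in BT474m1. SKBR-3 held more of all 6 genes with both drugs than with JQ1, and BT474m1 less.

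Among the leading genes of the reverse pattern, ANKRD13B, a ubiquitin-binding protein, had values of 1054, 343, 425 and 127 in SKBR-3 and 193, 381, 51.7 and 115 in BT474m1. HAGHL, a relative of a glyoxalase, read 341, 93.4, 137 and 17.9 in SKBR-3 and 60.8, 119.9, 24.6 and 44.9 in BT474m1. PGGHG, an enzyme that trims glucose from collagen, read 113, 57.4, 53.5 and 24.1 in SKBR-3 and 19.3, 123, 3.86 and 16.3 in BT474m1. In these 3 genes the directions were kept on top of JQ1, with SKBR-3 changes of -1.73 (-1.98 to -1.50), -2.87 (-3.58 to -2.34) and -1.12 (-1.76 to -0.57). REEP1, which shapes the endoplasmic reticulum, read 117, 55.1, 123 and 35.8 in SKBR-3 and 453, 919.9, 549.8 and 373 in BT474m1, and on top of JQ1 it was lower in both lines. KRT15, a basal keratin, read 251, 175, 732 and 511 in SKBR-3 and 234, 369, 639 and 377 in BT474m1, and with a pseudocount of 10 its SKBR-3 change was -0.49, just short of the threshold. ZNHIT2, a HIT-type zinc finger gene, ranked first of its direction and is listed at 0 in BT474m1 with DMSO. Its values were 104, 14.1, 0 and 216 in SKBR-3 and 0, 415, 157 and 415 in BT474m1. It is also listed at 0 in SKBR-3 with JQ1, its values were not whole reads, and no fold change is given for it.

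**Figure D4:**
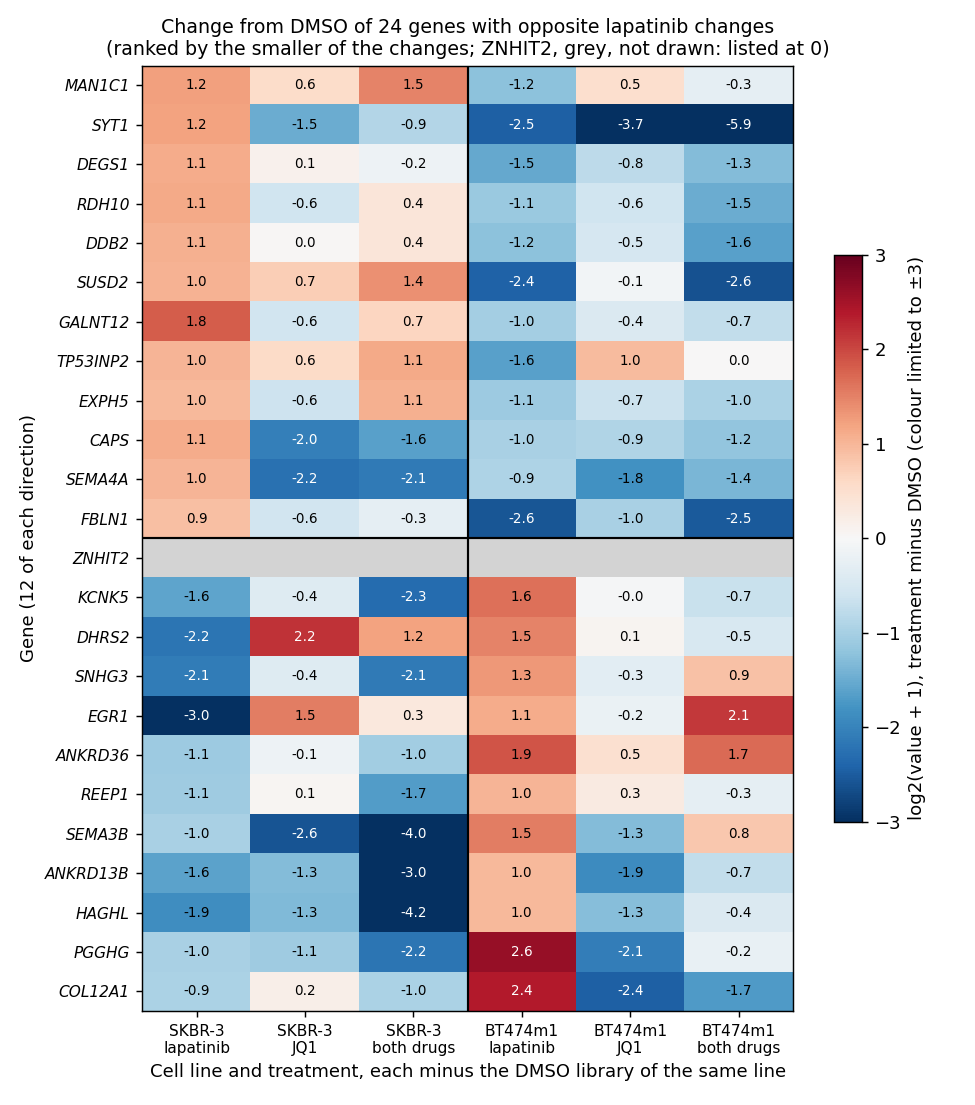
Change from the DMSO library of the same line, as a difference of log2(value + 1), with lapatinib, JQ1 and both drugs for the 12 leading genes of each direction, ranked by the smaller of their changes in the lines. The lapatinib columns are opposite by choice, whereas with JQ1 alone DHRS2 stands at 2.17 and SEMA3B at -2.58 in SKBR-3, and ZNHIT2 is left grey because it is listed at 0.

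The rule has a threshold, and the genes nearest to it differ little. MGAT4A and DAP were just inside, with smaller changes of 0.502 and 0.505. SGMS2 and SPRY1 were just outside, at 0.499 and 0.498. The counting intervals of all 177 genes excluded 0 in both lines. They come from the libraries that chose the genes, and the level and change required make this nearly certain, so it is no support.

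JQ1 alone against DMSO shares the DMSO libraries with the rule, and its values are given side by side only. The 89 genes had median changes of -0.08 in SKBR-3 and -0.21 in BT474m1, where all genes at the level had -0.05 and -0.04. Scaling by the median of ratios moved every SKBR-3 change of JQ1 by 0.09, that of all genes included, and the median of the 89 was then 0.01. For the 88 genes the medians were -0.32 and 0.05. With both drugs against lapatinib, which shares the lapatinib libraries, the medians were -0.35 in SKBR-3 and 0.04 in BT474m1 for the 89 genes and -0.17 and -0.18 for the 88, beside -0.08 and -0.0014 for all genes at the level. By the median of ratios the SKBR-3 medians were -0.19 for the 89 and -0.0071 for the 88. That scaling moved every SKBR-3 change here by 0.16, so the -0.08 of all genes moves with them. Single genes were well outside these medians, for instance MYC in BT474m1, with a change of -5.24 (-5.56 to -4.98) when JQ1 was added to lapatinib, and CREB3L1 in SKBR-3, with -2.08 (-2.31 to -1.87).

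Neither direction consisted of genes of one line only. With JQ1, in libraries the rule did not use, BT474m1 held more than SKBR-3 of 50 of the 89 genes and of 44 of the 88, with median log2 differences of 0.26 and 0.01 beside 0.10 over all genes at the level. Scaled by the median of ratios these medians were 0.06, -0.19 and -0.10, so that the sign for the 88 and for all genes depends on the scaling. With both drugs the medians were -0.68 and 1.35, beside 0.20, and under that scaling -0.99 and 1.04, beside -0.12. Lapatinib thus went with a change in which line held more. On top of JQ1 the order of the lines turned in 50 of the 177 genes, or 21 of the 89 and 29 of the 88, while in all 9681 genes it turned in 1844. Against DMSO, in the libraries that chose the genes, it turned in 75 of the 177 and in 1780 of all 9681. The median distance between the lines on the log2 scale was 1.04 with JQ1 and 1.51 with both drugs over the 177 genes, and 0.640 and 0.691 over all genes at the level.

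**Figure D5:**
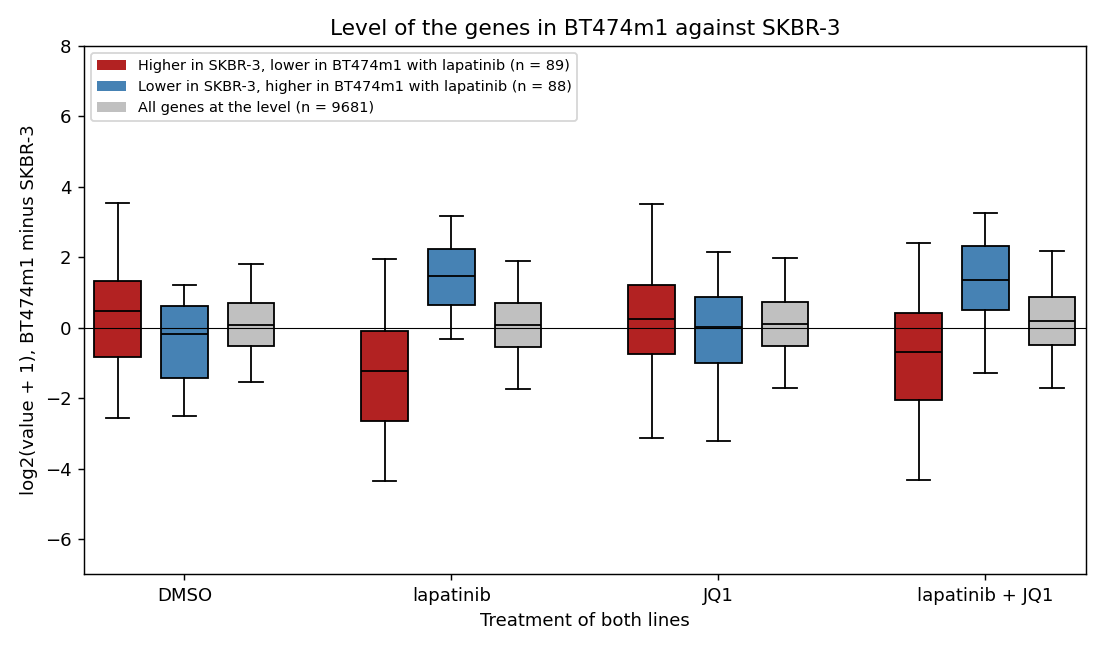
Difference between the lines, as log2(value + 1) in BT474m1 minus SKBR-3, under each treatment for the 89 genes higher in SKBR-3 with lapatinib (red), the 88 with the reverse pattern (blue) and all 9681 genes at the level (grey). Lines in the boxes are medians, boxes span the quartiles and whiskers the 5th to 95th percentiles, and with both drugs, where no library entered the rule, the medians are -0.68, 1.35 and 0.20.

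Of the 18 prepared gene lists, 9 held at least 1 of the 177 genes and 9 held none, with 17 genes on lists in all. Luminal and epithelial transcription factors gave 5 of their 36 genes at the level (13.9%), beside 1.83% of all genes in either direction. They were FOXA1, TOX3, CREB3L1, ID1 and TFAP2A, all higher in SKBR-3, where 0.919% of all genes at the level went that way. Another 6 of the 36 were higher by 0.5 or more in both lines and 0 lower. The list was written with earlier results of these data known, the FOXA1 values included, so the share is a description. TFAP2A is among the genes with fractional reads. For the following lists too, genes of either direction are counted, for which the share of all genes is 1.83%. At these sizes 1 gene moves a share widely. Matrix and integrin genes gave 3 of 18, MAPK output genes 2 of 20 (EGR1 and JUN) and Notch and Wnt genes 2 of 14, LFNG and JAG2. Of the 20 MAPK output genes, 5 were lower in both lines and 2 higher in both, at the same threshold. More of that list thus moved in the same direction than in opposite ones. Among the matrix and integrin genes 1 was higher in both lines and 0 lower, and among the Notch and Wnt genes 0 did either. Each of 5 other lists gave 1 gene, namely MYC, SLC1A5, ACACB, KRT15 and AZGP1.

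Several programmes known to follow HER2 inhibition held no gene of opposite direction, which at a share of 1.83% of all genes is near the background for lists of this size and is no result about them. Their changes in the same direction are read against 10.3% of all genes higher and 10.1% lower in both lines. None of 42 cell cycle and DNA replication genes at the level was among the 177, and 38 of them were lower by 0.5 or more in both lines. None of 27 FOXO target and PI3K feedback genes was, and 17 were higher in both lines. Glycolysis gave 0 of 22 with 11 lower in both lines, and endoplasmic reticulum chaperones 0 of 24 with 4 higher in both. Estrogen response genes, whose receptor only BT474m1 expresses, gave 0 of 29, with 11 higher and 4 lower in both lines. Receptor tyrosine kinases gave 0 of 20. Of 82 cytosolic ribosomal protein genes 1 was included, RPL22L1, and of 79 oxidative phosphorylation subunits none. Potassium, sodium and calcium channels gave 2 of 11, KCNK5 and CACNB1, again beside 1.83% of all genes.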

How the data were processed

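Poly(A) RNA was sequenced from 8 cultures of SKBR-3 and BT474m1 cells, 1 per group, and groups were taken from the labels. The labels name 2 different library kits, so that strandedness is uncertain. Each deposited table holds a signal for every gene, namely RSEM read counts that the authors scaled to a common upper quartile, which lay between 998.8 and 1000 over genes above 0. The submitters' processing notes name hg19, RSEM, Picard 1.88, SAMtools 1.2, DESeq, R 3.2.2 and DESeq2 1.12.3, whereas the study's methods name hg38, STAR and Salmon. Which of these apply to the tables is uncertain, and no position from the tables is given. One read was worth 0.471 to 0.766 units, and 85.0% to 86.4% of values above 0 were whole reads within 0.05 reads, so that no count test was run.

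The software was scipy 1.17.1, pandas 2.3.3, numpy 2.4.6 and matplotlib 3.10.9 under Python 3.11.15. Changes are differences of log2(value + 1), which understate the change of low genes. Their 95% intervals are Clopper-Pearson intervals for the share of recovered reads in one of the libraries and cover counting error only, since amplified reads carry no molecular identifiers. A floor of 3 reads is 1.41 to 2.30 units. Entrez identifiers matched RefSeq GRCh38.p14 for 20372 of 20531 genes (99.2%), which gave current symbols, chromosomes and neighbours. The rule for named genes took the 12 genes of each direction with the largest smaller change, every gene on a prepared list, and the 2 genes on either side of the threshold. The genes, lists and tests were chosen with earlier results of these data known. Alternatives were equal totals or the median of ratios as scaling, a pseudocount of 10, other levels and sizes of change, and intervals that exclude no change. The code of the selection was run on simulated data with planted opposite changes larger than the threshold and counting error only. That run says nothing about smaller changes or the spread between cultures.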

Additional observations from a re-analysis of the deposited data

Results flagged for a closer look

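In 16 of the 41 genes named by rule among the 177, lapatinib on top of JQ1 was followed by changes of 0.5 or more in opposite directions in the lines, in libraries that had not chosen the genes. Among the 177 genes this held for 20 of 89 (22.5%) and 42 of 88 (47.7%), whatever their level in those libraries. Among those at the level there it held for 18 of 79 (22.8%) and 32 of 70 (45.7%). Over all genes at that level 0.591% and 1.08% changed so. SYT1, SNHG3, SEMA3B, HAGHL and PGGHG did not reach a value of 100 in either of those libraries in at least 1 line. The 16 are given as the change in SKBR-3 minus that in BT474m1, on the log2(value + 1) scale. Genes higher in SKBR-3 and lower in BT474m1 were MAN1C1 by 1.71, SYT1 by 2.83, RDH10 by 1.85, SUSD2 by 3.15, TP53INP2 by 1.51, AZGP1 by 1.47 and SLC1A5 by 2.33. Those lower in SKBR-3 and higher in BT474m1 were SNHG3 by -2.92, EGR1 by -3.54, ANKRD36 by -2.13, SEMA3B by -3.57, ANKRD13B by -2.88, HAGHL by -3.71, PGGHG by -2.95, COL12A1 by -1.89 and JAG2 by -1.68. The difference was not tested, since each group held 1 library.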

How the results depend on the processing

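No paired analysis of replicates was possible because each group held 1 library, and for the same reason no library was left out. Changes between treatments were taken within each line. A model that takes the JQ1 states as repeats of lapatinib would assume that the drugs do not interact and would use the libraries that chose the genes, and it was not run. Without a required level the counts were 461 and 670, in the order higher in SKBR-3 and higher in BT474m1, and 42.7% and 43.9% of them kept both directions on top of JQ1. At a level of 500 the counts were 53 and 19, with 9 genes on the prepared lists, and at a change of 1 or more they were 8 and 7. Of the 5 genes higher in BT474m1 by 1 or more and at the level with JQ1, 2 (40.0%) kept both directions. Among 12 promoters of genes at that change, the forkhead, MYC and AP-1 motifs were each found in 0. Scaling by the median of ratios moved all SKBR-3 changes of both drugs against lapatinib by 0.16, and the median of the 88 genes there was -0.0071. Scaling to equal totals moved all SKBR-3 changes of JQ1 by -0.15, and the median of the 88 genes there was -0.46. Counts under a pseudocount of 10, either scaling and whole reads only were within 1.5 times those reported, from 73 to 96 and from 61 to 104. Requiring intervals that exclude no change left 89 and 88, which the rule makes nearly certain. The genes were partly exchanged. Of the 89 and 88, 86 and 82 were chosen again with the pseudocount, 82 and 80 by the median of ratios, which added 14 and 5, and 78 and 88 at equal totals, which added 0 and 16. None took the opposite direction. LFNG and MGAT4A were lost under all 3, DAP under both scalings, KRT15 under the pseudocount and MAN1C1 by the median of ratios. Under these 3 settings, 247 of 258 values of named genes stayed within their counting interval and none changed sign. Depth limits genes near 100 units, and the spread between cultures is unknown.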
